A study of Rattus norvegicus with 12 samples.

Results

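The genes described here are CREB, its coactivators and the salt-inducible kinases, a list of 10 names of which 7 had a row among the 17494 genes of the count table: Creb1, Crem, Crebbp, Crtc1, Crtc2, Sik1 and Sik3. The other 3 names, Crtc3, Ep300 and Sik2, are not analysed here. RNA was sequenced from 12 wild-type male Long Evans rats, 1 library per rat, and every rat had been exposed as a young adult to repetitive low-level blast. Of these, 6 were fed chow with boldine, an alkaloid of the boldo tree, from the second week after blast until sacrifice months later (blast-boldine), and 6 were fed the same chow without it (blast-controls). No rat without blast was among these libraries, so that both groups share the exposure and differ in diet. The list was chosen by gene family with earlier results of this same comparison known, and Crtc1 had been selected on its unadjusted p in these libraries by the study. The differences between blast-boldine rats and blast-controls are therefore given as a description of the 7 genes, with their errors and with no test of the list.

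CREB, encoded by Creb1, is a transcription factor that binds the cAMP response element (CRE) and, once phosphorylated by protein kinase A or calcium-activated kinases, recruits the acetyltransferases CBP (Crebbp) and p300 to its target genes. The CRTC proteins are a separate class of CREB coactivators: salt-inducible kinases phosphorylate them and hold them in the cytoplasm, and calcineurin removes the phosphate so that they enter the nucleus. In the hippocampus this pathway is known for activity-dependent transcription and long-term memory. Crem encodes a relative of CREB, and internal promoters of its gene give ICER, a short inducible repressor of CRE-driven transcription. Sik1 is itself a CREB target and acts back on the CRTC proteins, so Sik1 and ICER are known as feedback repressors of the pathway.

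Promoter sequences are shown first, since a CRE in their own promoters is the textbook route by which Crem and Sik1 respond to CREB. RefSeq promoters of the build GRCr8 (250 bases before each start and the first 50 after it) were searched on both strands for the full CRE, TGACGTCA, and for its shorter core TGACG, of which every full CRE holds a copy on each strand. The full CRE occurred in 1.83% and the core in 21.2% of 33469 promoter records. All 7 genes had a promoter record, with 10 records among them. Of these genes, Crem was the one with a full CRE: it had 3 starts, and the internal pair of them held 1 and 2 copies, while its first start held 2 cores and no full CRE. Sik1 held 2 cores, Creb1 held 3 at the first of its starts and 0 at the other, Sik3 held 3 and Crtc2 held 1, whereas neither Crtc1 nor Crebbp held any. Windows of 60 bases are printed with the matches in capitals. They are, for the internal Crem starts, chr17:58984715-58984774 (bases -82 to -23 from the start) and chr17:58985429-58985488 (bases -61 to -2), both on the plus strand. For Sik1 the window is chr20:9958800-9958859 on the minus strand (bases -213 to -154), and for Creb1 chr9:73397412-73397471 on the plus strand (bases -97 to -38). Crtc1, at chr16:19022150-19022209 on the plus strand (bases -60 to -1), is shown as the contrast without a match. The other full CRE of Crem and the other core of Creb1 lie after their starts, outside these windows.
Crem, first internal start: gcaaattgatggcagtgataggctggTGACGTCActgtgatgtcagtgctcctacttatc
Crem, next internal start: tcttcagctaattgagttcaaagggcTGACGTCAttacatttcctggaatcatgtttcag
Sik1: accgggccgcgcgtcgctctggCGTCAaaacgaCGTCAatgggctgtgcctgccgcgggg
Creb1: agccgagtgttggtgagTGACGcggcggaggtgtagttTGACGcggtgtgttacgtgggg
Crtc1: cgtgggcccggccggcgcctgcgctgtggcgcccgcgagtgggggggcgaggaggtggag
A match describes letters in this window and is not evidence that CREB binds there. The counts are summed over all exons of Crem, so ICER and the longer CREM forms cannot be told apart in them.

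The values rest on counts per gene, which summed to between 10148474 and 40850106 in 11 libraries and to 74008 in blast-control rat 6. A level is given as CPM, a count relative to the TMM-adjusted library total, on which scale 3 counts, the limit that a count of 0 allows, correspond to 47.5 CPM in rat 6 and to between 0.0658 and 0.307 CPM in the others; this floor covers counting error only. Results are given with and without rat 6. Each suffix of the library names occurs on a pair of libraries, so the suffixes were used to divide the rats into 2 library sets, on the assumption that each suffix occurs once in a set and that rat numbers rise with the suffix within a set and treatment. Of the 4 assignments left under that assumption, which was not tested, 1 was chosen because it accounted for the most, 95.1%, of the first principal component (66.0% of the variance of the 11 deeper libraries). Treatment accounted for 1.53% of that component. In that assignment, set 1 holds blast-control rats 1, 7 and 9 and blast-boldine rats 20, 32 and 35, and set 2 holds blast-control rats 4, 5 and 6 and blast-boldine rats 12, 17 and 19. What the sets are is not named in the labels. The labels give the tissue as brain and the study gives it as hippocampus. Of the 6 hippocampal neuron markers examined, Prox1, Neurod2, Wfs1, Bcl11b and Zbtb20 measured between 45.9 and 535 CPM in the 11 libraries, and Spink8 was at most 0.197 CPM.

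Crtc1 encodes the CRTC form best known from neurons, where it couples synaptic activity to CREB. Its exons span bases 18988271 to 19042805 of chromosome 16 (build mRatBN7.2, used for all gene positions). In set 1, Crtc1 measured 67.8, 64.8 and 70.4 CPM in blast-control rats 1, 7 and 9 and 57.6, 63.1 and 48.8 CPM in blast-boldine rats 20, 32 and 35. In set 2 it measured 197 and 174 CPM in blast-control rats 4 and 5, 982 CPM in blast-control rat 6, and 152, 167 and 136 CPM in blast-boldine rats 12, 17 and 19. In each set, all 3 rats fed boldine were therefore lower than any control of that set, while across sets the groups overlapped widely. Crtc1 averaged 104 ± 53.2 CPM with boldine (SD, n = 6) against 259 ± 359 CPM without (SD, n = 6), and its log2 fold change came to -0.93 (SE 0.66). Leaving out rat 6 brought the blast-control average to 115 ± 64.9 CPM (n = 5) and the log2 fold change to -0.14 (SE 0.43). Adding the library set to that model gave -0.28 (SE 0.078). Within the sets, mean log2 CPM differed between boldine and control by -0.27 in set 1 and by -0.29 in set 2. With rat 6 kept, the estimate also differed between methods, at -1.24 (SE 0.59) in DESeq2, -0.20 (SE 0.44) in limma-voom and -0.48 (SE 0.26) in edgeR with the set added. The size of the pooled Crtc1 difference thus depended on rat 6 and on how the model treated it, and the estimate was negative in each of these fits.

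**Figure D1:**
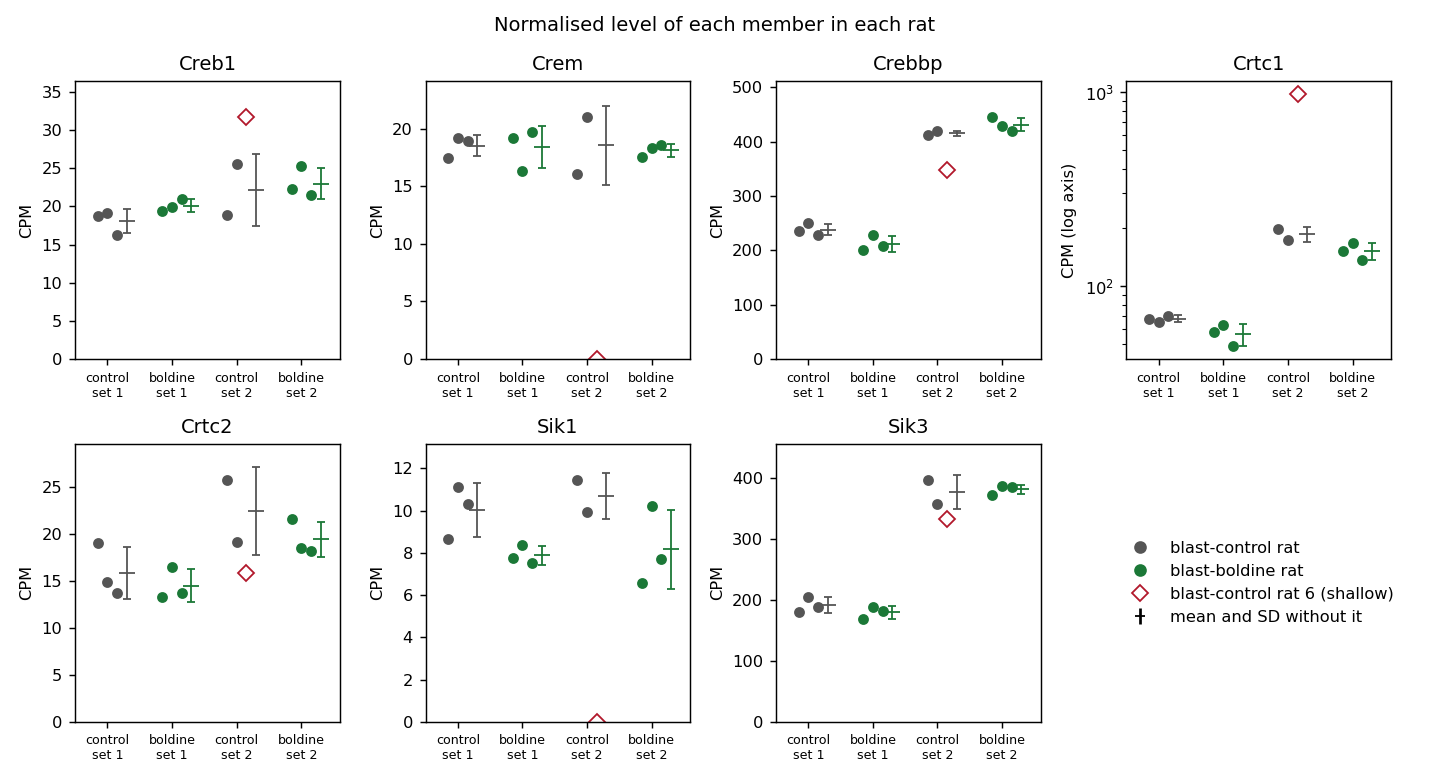
Level of each of the 7 genes (CPM, log axis for Crtc1) by treatment and library set; filled points are rats, bars are means with SD without rat 6, and the open diamond is blast-control rat 6. Crtc1, Crebbp and Sik3 separate by library set, and the Crtc1 value of 982 CPM in rat 6 stands above every other rat.

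The Crtc1 value of rat 6 came from 62 counts. The other 5 libraries of set 2, at 136 to 197 CPM, would give 10.4 counts at the depth of rat 6, so the count was 5.95 times the expected number (95% exact Poisson interval 4.56 to 7.63, for counting error only). Of the 3385 genes with an expected count of at least 5 in rat 6, 5 genes, or 0.148%, had a ratio as high as that of Crtc1 or higher (Crtc1 included), and 2.92% had a ratio over 3. The other abundant members did not share the excess. Crebbp had 22 counts where 26.8 were expected, a ratio of 0.819 (0.513 to 1.24), and Sik3 had 21 where 24.0 were expected, a ratio of 0.874 (0.541 to 1.34). For Creb1, Crtc2, Crem and Sik1 the expected counts were between 0.579 and 1.43, and rat 6 held 2, 1, 0 and 0 counts, so their levels were not measurable at this depth.

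**Figure D2:**
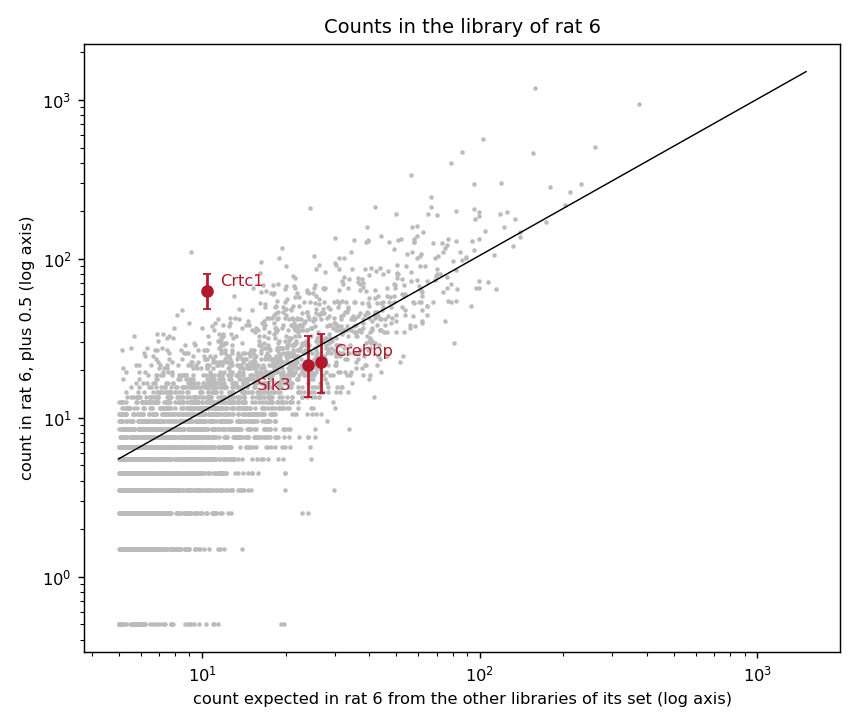
Count of each gene in the library of rat 6 (plus 0.5) against the count expected from the other 5 libraries of set 2, both on log axes, for 3385 genes; the line marks equality and red bars are 95% exact Poisson intervals. Crtc1, with 62 counts for 10.4 expected, lies far above the line, and Crebbp and Sik3 lie on it within their intervals.

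Crtc2 (chromosome 2, bases 175709754 to 175719339) is the CRTC form known from hormone and fasting responses in the liver. Rat 6 set aside, it averaged 18.5 ± 4.73 CPM without boldine (SD, n = 5) and 16.98 ± 3.17 CPM with it (SD, n = 6), and 1 blast-boldine rat lay under all 5 blast-controls. The log2 fold change came to -0.13 (SE 0.19), and to -0.12 (SE 0.19) once rat 6 was kept. The ranges of the groups overlapped in each set. Per length, Crtc1 was 3.91 to 5.64 times as abundant as Crtc2 in the libraries of set 1 and 7.71 to 9.94 times in those of set 2, so the ratio of the 2 coactivators also differed between the sets without overlap.

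Sik1 encodes a salt-inducible kinase that is induced by cAMP and that sends CRTC proteins back to the cytoplasm. Its exons span bases 9949407 to 9958939 on the minus strand of chromosome 20. In blast-controls Sik1 measured 8.65, 11.1 and 10.3 CPM in rats 1, 7 and 9 and 11.5 and 9.93 CPM in rats 4 and 5, with 0 counts in rat 6. In blast-boldine rats it measured 7.76, 8.36 and 7.51 CPM in rats 20, 32 and 35 and 6.59, 10.2 and 7.70 CPM in rats 12, 17 and 19. Apart from blast-boldine rat 17, the rats fed boldine were lower than all 5 measurable blast-controls, and all 6 lay under the median of those controls. The share of all genes with such a pattern was not computed. Sik1 averaged 8.02 ± 1.22 CPM with boldine (SD, n = 6) against 10.3 ± 1.10 CPM without, rat 6 set aside (n = 5). Fitted log2 fold changes were -0.34 (SE 0.17) with all 12 libraries, -0.36 (SE 0.14) without rat 6 and -0.37 (SE 0.13) with the library set added, and mean log2 CPM differed by -0.34 in set 1 and -0.40 in set 2.

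Sik3 (chromosome 8, bases 46312300 to 46522444) encodes a related kinase known from metabolism and the regulation of sleep need. It averaged 266 ± 103 CPM without boldine, rat 6 set aside (SD, n = 5), against 281 ± 111 CPM with it (n = 6). In set 1, blast-controls measured 181, 206 and 189 CPM and blast-boldine rats 169, 189 and 182 CPM. In set 2, blast-controls measured 397 and 359 CPM, and blast-boldine rats 374, 387 and 386 CPM. The groups overlapped within each set. Fitted log2 fold changes were 0.037 (SE 0.30) with all libraries, 0.078 (SE 0.32) without rat 6 and -0.049 (SE 0.065) with the set added, so its sign depended on the model.

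Creb1 (chromosome 9, bases 65903728 to 65967003) encodes CREB itself. It averaged 19.7 ± 3.44 CPM without boldine, rat 6 set aside (SD, n = 5), against 21.5 ± 2.12 CPM with it (n = 6). In set 1 all 3 blast-boldine rats, at 19.4, 19.9 and 21.0 CPM, lay above the 3 blast-controls, at 18.8, 19.2 and 16.3 CPM. In set 2 the values overlapped, at 18.9 and 25.5 CPM in blast-controls and 22.2, 25.3 and 21.5 CPM in blast-boldine rats. Without rat 6 the Creb1 estimate of 0.12 on the log2 scale was smaller than its SE of 0.13. Crem (chromosome 17, bases 54238889 to 54305989) averaged 18.5 ± 1.85 CPM without boldine, rat 6 set aside (SD, n = 5), against 18.3 ± 1.22 CPM with it (n = 6), and its estimate was -0.025 (SE 0.10). The Crem values of blast-boldine rats ran from 16.3 to 19.7 CPM, inside the range of the blast-controls from 16.1 to 21.0 CPM.

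Crebbp (chromosome 10, bases 11335953 to 11461887) encodes the acetyltransferase CBP. In set 1 it measured 236, 250.3 and 229 CPM in blast-controls and 201, 229 and 208 CPM in blast-boldine rats. In set 2 it measured 412 and 419 CPM in blast-controls other than rat 6 and 445, 430 and 420 CPM in blast-boldine rats. In set 1, 2 of 3 rats fed boldine were lower than any control, and mean log2 CPM differed by -0.17 between boldine and control. In set 2, with rat 6 set aside (349 CPM from 22 counts), all 3 lay over both blast-controls, with a difference of 0.054. Whether the sets differ in this was not tested. Fitted log2 fold changes were 0.037 (SE 0.26) with all libraries, 0.058 (SE 0.29) without rat 6 and -0.073 (SE 0.070) with the set added.

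**Figure D3:**
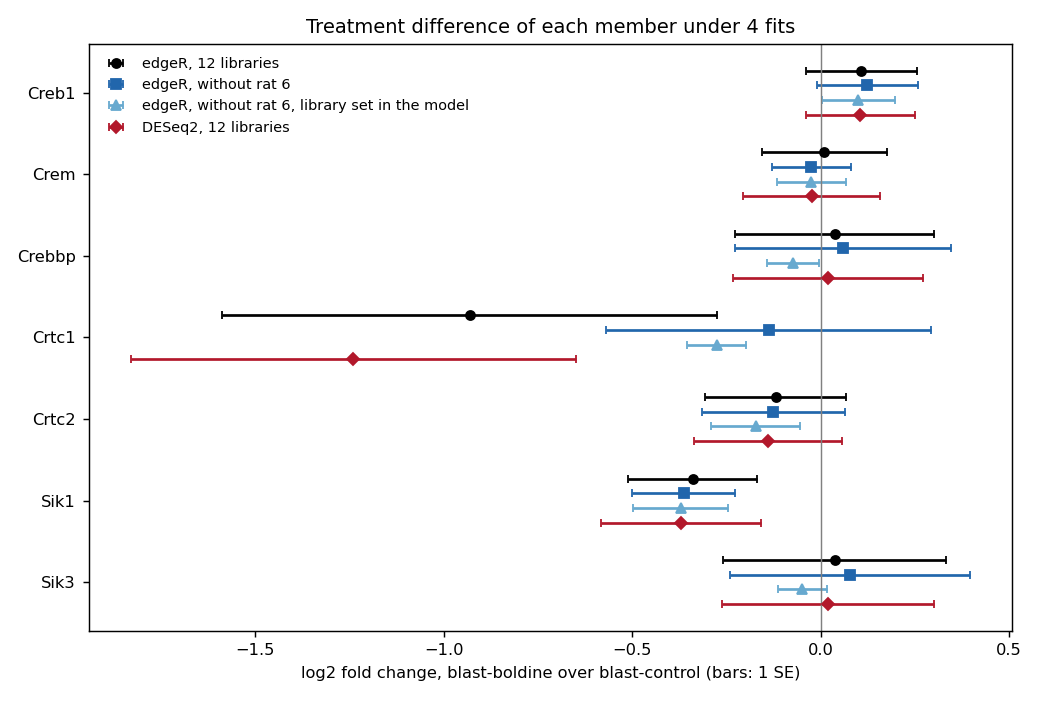
Log2 fold change of blast-boldine over blast-control for each gene (points, bars of 1 SE) in edgeR with 12 libraries, without rat 6, without rat 6 and with the library set in the model, and in DESeq2 with 12 libraries. For edgeR, the SE was derived from the F statistic of the test. Crtc1 moves from -1.24 in DESeq2 to -0.14 without rat 6, and Sik1 lies between -0.37 and -0.34 in all 4.

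In the fit across the whole table (edgeR's quasi-likelihood test, Benjamini-Hochberg adjustment over all genes tested), 0 of the 7 genes and 0% of the 12325 genes tested had an adjusted p under 0.05. The same held for 0% of 12529 genes without rat 6 and for 0% of them with the set added. At an unadjusted p under 0.05, edgeR with all libraries held 0 members and 1.07% of all genes tested. DESeq2 held 1 member (Crtc1) and 0.542% of all genes, and limma-voom 1 member (Sik1) and 0.933%. Without rat 6, edgeR held 1 member (Sik1) and 1.4% of all genes, and with the set also added 2 members (both of these) and 5.35%. The share over all genes therefore differed between the fits, and since the rule used this contrast nothing is read from the members' counts. Genes whose groups did not overlap in either set without rat 6 made up 0.694% of 12529 genes when lower in blast-boldine rats and 0.343% when higher. Crtc1 was 1 of the former and no member was of the latter. Since Crtc1 was on the list for its values in this comparison, nothing is read from that count. The median log2 fold change of the 7 genes was 0.010 against 0.0046 over all genes with 12 libraries, and -0.025 against -0.00097 without rat 6.

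Differences between library sets were larger than those between treatments for 5 of the 7 genes, Crtc1, Sik3, Crebbp, Crtc2 and Creb1. The share of all genes for which this held was not computed, so nothing is read from the count. Over the 12529 genes tested without rat 6 and with treatment in the model, the quartiles of the set difference were -0.45 and 0.49 (log2). With treatment in the model and without rat 6, the level in set 2 over that in set 1 was 2.73-fold for Crtc1, 2.07-fold for Sik3, 1.91-fold for Crebbp, 1.38-fold for Crtc2 and 1.19-fold for Creb1. On the log2 scale it was 0.078 (SE 0.13) for Sik1 and 0.0025 (SE 0.092) for Crem. The sets were picked for their share of the first principal component of these same libraries, so these values are a description. Crtc1 stood at the percentile 96.1 of all genes tested for this difference, Sik3 at 90.8, Crebbp at 88.4, Crtc2 at 73.8, Creb1 at 63.7, Sik1 at 54.5 and Crem at 50.3. No library of one set overlapped the other set in Crtc1, Sik3 or Crebbp. How many of all genes separated by set in this way was not computed, so nothing particular to these members is read from it. Summed levels of some cell type markers differed between the sets as well. The summed level of 4 endothelial markers was 61.2 to 91.8 CPM in set 1 and 177 to 243 CPM in set 2. For 6 microglial markers it was 311 to 353 CPM and 132 to 216 CPM, for 3 red blood cell markers 121 to 174 CPM and 26.98 to 78.0 CPM, and for 6 hippocampal neuron markers 955 to 1093 CPM and 1427 to 1728 CPM. The sums of 8 neuron, 6 astrocyte, 6 oligodendrocyte, 6 choroid plexus and ependyma and 5 meningeal fibroblast markers overlapped between the sets, and none of the markers was at 0 throughout a set. Between treatments, with rat 6 left out, all 9 sums overlapped. In edgeR with 12 libraries 0 markers passed the adjusted threshold, while all 6 microglial markers had negative estimates (median log2 fold change -0.16), and all 4 endothelial and all 6 choroid plexus and ependyma markers had positive ones (0.20 and 0.36), as had 4 of 5 meningeal markers (0.61). Estimates were also negative for 5 of 6 astrocyte markers (-0.11), 3 of 6 oligodendrocyte markers (-0.0049) and 2 of 3 red blood cell markers (-0.18). The same held for 5 of 8 neuron markers (-0.025) and 4 of 5 hippocampal neuron markers tested (-0.036). Without rat 6 and with the set added, the microglial median was -0.14 (6 of 6 negative), the endothelial one 0.061 (3 of 4 positive), the choroid plexus and ependyma one 0.71 (6 of 6) and the meningeal one 0.70 (5 of 5). In that fit, negative estimates were found for 6 of 6 astrocyte (median -0.082), 6 of 6 oligodendrocyte (-0.088) and 3 of 3 red blood cell markers (-0.13). They were also found for 4 of 8 neuron markers (-0.013) and 4 of 5 hippocampal neuron markers tested (-0.067). The part of these in the members' values was not tested. In bulk tissue, fewer cells of a type and less RNA per cell cannot be told apart.

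**Figure D4:**
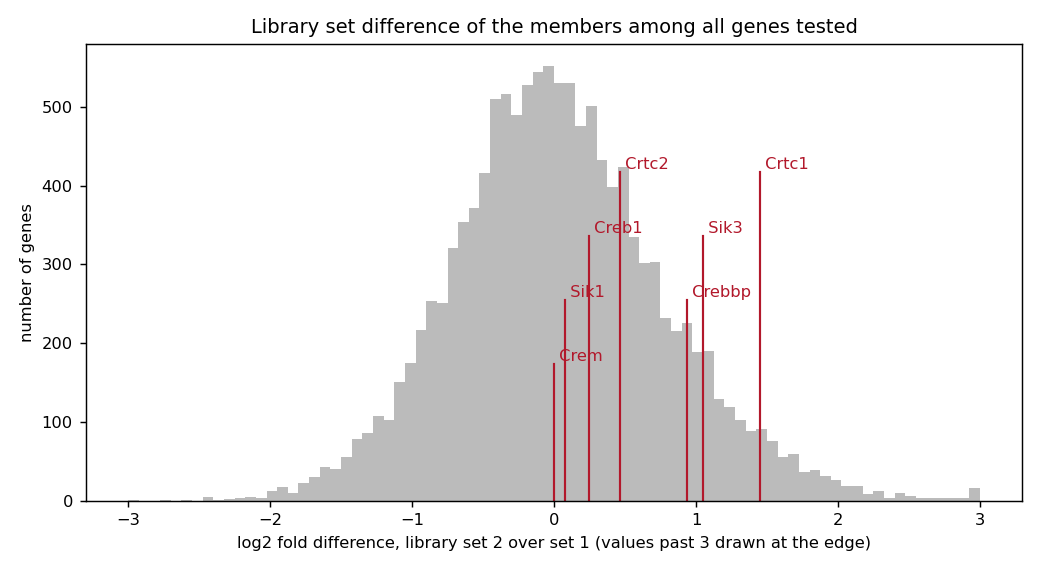
Histogram over 12529 genes of the log2 fold difference of library set 2 over set 1, with treatment in the model and without rat 6; red lines mark the 7 genes. Crem and Sik1 lie near 0, and Crebbp, Sik3 and Crtc1 lie toward the upper end of the distribution, at 0.94, 1.05 and 1.45.

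Levels per length (RPKM, CPM per kilobase of counted exon) allow the genes to be ordered under the gene models used. The length pools all counted exons of a gene, which for Crem are 4735 bases over forms that cannot be told apart. How far the order depends on this was not tested. In set 1, Crtc1 at 32.8 ± 4.14 (SD, n = 6) and Sik3 at 29.7 ± 1.96 led and overlapped, followed by Crebbp at 22.3 ± 1.81, Creb1 at 16.9 ± 1.40 and Crtc2 at 7.31 ± 1.08, which did not overlap with each other or with those above. Crem at 3.90 ± 0.273 and Sik1 at 3.39 ± 0.548 were lowest and overlapped. In set 2 without rat 6, the order was Crtc1 at 87.2 ± 12.002 (SD, n = 5), Sik3 at 60.9 ± 2.38, Crebbp at 42.1 ± 1.25, Creb1 at 20.1 ± 2.47, Crtc2 at 9.95 ± 1.52, Crem at 3.86 ± 0.378 and Sik1 at 3.47 ± 0.750, and again the ranges of Crem and Sik1 alone overlapped. The counted exons of Crtc1 (1893 bases) and Crtc2 (2076 bases) are multiples of 3, as were the lengths of 42.6% of all genes, and whether these models leave out UTRs was not tested. No exon of the 7 genes overlapped an exon of another gene in the table.

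Over the 11 libraries, Crtc1 correlated with Crebbp at a Pearson r of 0.97 and with Sik3 at 0.97, and Crebbp with Sik3 at 0.99, while Crem correlated with Crtc1 at -0.09. These points share the library sets. After centring within sets, the values were 0.42, 0.33 and 0.72, and the highest with Crtc1 was Sik1 at 0.77. This centring did not remove treatment. Mean log2 CPM was lower with boldine in both sets for Crtc1 (-0.27 and -0.29) and for Sik1 (-0.34 and -0.40). The part of that shared difference in the value of 0.77 was not tested. The genes whose log2 CPM was most like that of Crtc1 over the 11 libraries were Khsrp, Nr4a3, Cherp, Ppp1r13b and Scaf1, with r from 0.989 to 0.991, and the least like were Zfp445, Arsk and Sacm1l, with r from -0.989 to -0.987. An r over 0.95 with Crtc1 was reached by 450 of 12528 genes, 3.59%.

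The rest of the pathway is described from 5 lists, with 91 genes tested, none of which had an adjusted p under 0.05 in edgeR in either direction. At an unadjusted p under 0.05 there were 3 of the 91 in edgeR, 4 in DESeq2 and 3 in limma-voom with all libraries, beside the shares of all genes given above. Without rat 6 there were 5 in edgeR and 7 in DESeq2 (1.78% of all genes). With the library set in the model there were 9 with all libraries (3.85% of all genes) and 15 without rat 6. Nr4a1 and Fosb, which the study had picked on these same libraries, were among the 3 in edgeR with all libraries. The lists were also chosen with earlier results known, so nothing is read from these counts. In the list of cAMP synthesis and protein kinase A, 18 of 18 genes were tested, 8 with positive and 10 with negative estimates, and the median log2 fold change was -0.040 with 12 libraries. Its genes with the smallest p were the adenylyl cyclases Adcy3 at -0.14 (SE 0.14) and Adcy8 at -0.15 (SE 0.20). In the list of CREB kinases of the calcium and MAP kinase routes, with 14 genes, 7 in each direction and a median of -0.0016, these were the ribosomal S6 kinases Rps6ka1 at -0.24 (SE 0.14) and Rps6ka3 at 0.090 (SE 0.10). The 19 regulators of CRTC included calcineurin subunits, kinases upstream of or beside the SIKs and 14-3-3 proteins. Of their estimates, 13 were positive and 6 negative with a median of 0.014. The genes with the smallest p were Cab39, a partner of the kinase LKB1, at 0.28 (SE 0.17) and the AMP kinase subunit Prkaa1 at 0.15 (SE 0.17). Among 12 relatives of CREB and related repressors, 7 were positive and 5 negative with a median of 0.026 (-0.010 without rat 6), with Atf3 at 0.54 (SE 0.34) and Creb3 at 0.11 (SE 0.13).

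Of 28 known CREB target genes, 22 had a negative log2 fold change with all libraries and 23 without rat 6, with medians of -0.17 and -0.16, beside the medians over all genes given above. Over all genes tested, 48.7% and 50.3% of the estimates were negative. The smallest p were those of the orphan receptor gene Nr4a1, at -0.63 (SE 0.17), and of the AP-1 gene Fosb, at -0.53 (SE 0.21). Nr4a1, Fosb and Nr4a2 had been picked by the study on these libraries. Without these 3, 19 of 25 were negative with all libraries and 20 without rat 6, with medians of -0.12 and -0.074. The other 25 were also listed with earlier results of this comparison known, so nothing is read from these counts.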

How the data were processed

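The members and gene lists were chosen with earlier results of these data known. Reads were cleaned by the authors in HTStream, which also removed PCR duplicates, and mapped by STAR 2.7.11b on mRatBN7.2. Fragments on RefSeq exons were then counted per gene and by strand (featureCounts, Subread 2.0.1). The deposited values are raw counts, without normalization. The counts were tested here with edgeR 4.0.16 in R 4.3.3 (quasi-likelihood, TMM, filterByExpr with a minimum of 10 counts, treatment as the only term, two-sided, Benjamini-Hochberg adjustment, threshold 0.05). The same fit was run without rat 6 and with the library set. For edgeR, the SE given is the absolute log2 fold change divided by the square root of the F statistic of its test. Log2 CPM used a prior count of 2. Alternatives were DESeq2 1.42.0, limma-voom 3.58.1, other size factors, other filters and leaving out each rat. Named were all members, the genes with the smallest 2 unadjusted p per list, and the 5 genes most and 3 least correlated with Crtc1. Plots and sums used Python 3.11.15.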

Additional observations from a re-analysis of the deposited data

Results flagged for a closer look

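In each group of 6 rats, the highest and the lowest CPM of each gene were compared with the rest by Dixon's criterion for a single distant value, in 14 groups. Chance alone marks about 1 group in 20. The criterion was passed in 3 groups, each time by blast-control rat 6, the shallow library: Crtc1 at 982 CPM, above the others, and Crem and Sik1 at 0 CPM, below the others. The last pair are counts of 0 at a depth where 3 counts are worth 47.5 CPM, so a level like that of the other rats was not detectable.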

How the results depend on the processing

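No member and no gene of the 5 pathway lists had an adjusted p under 0.05 under any of the 21 alternatives run. Crtc1, Sik1 and Creb1 kept the sign of their log2 fold change under all 21, with ranges of -1.24 to -0.14, -0.42 to -0.29 and 0.040 to 0.21. For Crtc1 the extreme values were DESeq2 with 12 libraries and leaving out rat 6. The sign turned under at least 1 alternative for Crem, Crebbp, Sik3 and Crtc2. Crem was -0.0052 with RLE size factors, -0.0076 with upper quartile scaling, -0.024 in DESeq2 and -0.020 in DESeq2 without rat 6, -0.0074 with the library set added and -0.025 with the set and without rat 6. With the set added, with and without rat 6, Crebbp was -0.046 and -0.073 and Sik3 was -0.031 and -0.049. Leaving out 1 rat at a time gave ranges of -0.029 to 0.062 for Crem, -0.077 to 0.17 for Crebbp, -0.077 to 0.19 for Sik3, -0.21 to 0.022 for Crtc2 (positive without blast-control rat 4) and -1.19 to -0.14 for Crtc1. The difference in mean log2 CPM with rat 6 kept was 1.195 for Crem and 0.71 for Sik1 and moved to 1.53 and 1.04 with a prior count of 0.5, and without rat 6 it was -0.018 and -0.36. No value of Creb1, Crem, Crtc2 or Sik1 in rat 6 can be compared with other rats at its depth. No paired analysis was possible because the groups share no replicate number.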
